A study of Homo sapiens with 12 samples.

Results

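The comparison described here is the difference between 2 triple-negative breast cancer cell lines in their response to ERK5 knockout. For each gene, the change from MDA-MB-231 parental to MDA-MB-231-ERK5-ko cells was taken on the log2(RPKM + 0.5) scale, the change from Hs-578T parental to Hs-578T-ERK5-ko cells was taken on the same scale, and the second was subtracted from the first. RPKM is the number of reads per kilobase of transcript, scaled to the mapped reads of the library. The comparison uses 8 of the 12 RNA-seq libraries of the series, 2 in each of 4 groups, and every one of the 13737 protein-coding genes that passed a filter on low values (of 17665 listed) was tested. A positive difference means that a gene went up more, or down less, in MDA-MB-231 than in Hs-578T cells.

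MDA-MB-231 and Hs-578T are human lines with a mesenchymal appearance that lack the estrogen and progesterone receptors and amplified HER2. The parental controls carried no knockout, the ERK5-ko cells were made with CRISPR/Cas9 and guides against MAPK7, the gene that encodes ERK5, and no group had a further treatment. MDA-MB-231-ERK5-ko is the progeny of 1 surviving clone, and the methods of the study name several Hs-578T clones without saying which one was sequenced. The library names carry p numbers of 29 and 30 for MDA-MB-231 parental, 7 and 8 for MDA-MB-231-ERK5-ko, 83 and 84 for Hs-578T parental, and 8 and 9 for Hs-578T-ERK5-ko cells, so the p number, the clone and the genotype cannot be told apart within a line. Nothing states that the 2 libraries of a group came from separate cultures, and p-values therefore measure only the spread between libraries, which may be technical. The 4 remaining libraries, from cells expressing MEK5DD, entered only the estimate of that spread.

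ERK5 is a mitogen-activated protein kinase that is switched on by the kinase MEK5 after growth factor or stress signals. It phosphorylates transcription factors of the MEF2 family and also carries a transcriptional activation domain of its own. In breast cancer cells the pathway is known for its part in proliferation, in the epithelial-to-mesenchymal transition (EMT) and in the making of extracellular matrix.

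MAPK7 RNA was not lower in the cells labelled ERK5-ko. It went from 13.3 and 14.3 to 16.3 and 17.8 RPKM in MDA-MB-231 and from 13.97 and 15.98 to 17.8 and 18.1 RPKM in Hs-578T cells, with the 2 ERK5-ko libraries above the 2 parental libraries in both lines. The changes were 0.29 ± 0.10 (adjusted p = 0.0709) and 0.26 ± 0.10 (adjusted p = 0.0624) on the log2 scale, and their difference was 0.03 ± 0.14 (adjusted p = 0.874). Small CRISPR lesions can remove a protein without lowering its RNA, and gene-level values cannot show the lesion, so each direction below rests on the labels. The study's methods checked its clones for loss of ERK5 by qRT-PCR and Western blot, and protein was not measured in these libraries. Library totals of these 8 ranged from 20722185 to 27791195 reads. Of 71 genes that marked MDA-MB-231 parental cells, 70 were at 1 RPKM or more in MDA-MB-231-ERK5-ko cells and 0 in Hs-578T-ERK5-ko cells, and of 146 genes that marked Hs-578T parental cells, 140 were at that level in Hs-578T-ERK5-ko and 0 in MDA-MB-231-ERK5-ko cells. ESR1 was at 0.12 RPKM or less in all 8 libraries and PGR at 0.35 RPKM or less, ERBB2 ranged from 33.3 to 56.9 RPKM, and vimentin (VIM) from 1598 to 3608 RPKM.

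To find which functions differed, a gene was called where the difference had an adjusted p below 0.05 (limma, Benjamini-Hochberg over all genes tested) and a size of at least 1 on the log2 scale. By this rule 780 genes (5.68%) had a higher and 1004 genes (7.31%) a lower difference, or 13% of the genes tested, and 5466 (39.8%) passed the adjusted p alone. Across all genes the median difference was -0.053, and the changes in the 2 lines had a Pearson r of -0.237 over 13737 genes, which share libraries and are not independent. Within each line alone, under the fold thresholds of the study's methods (adjusted p below 0.05, fold above 1.5 or below 0.5), 385 genes (2.8%) went up and 147 (1.07%) went down in MDA-MB-231-ERK5-ko cells, against 1285 (9.35%) and 449 (3.27%) in Hs-578T-ERK5-ko cells. A fall had to pass a stricter fold than a rise, so the numbers up and down do not compare directly. By adjusted p alone the counts were 949 (6.91%) up and 1430 (10.4%) down in MDA-MB-231, and 2706 and 2707 (19.7% each) in Hs-578T cells.

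The 1784 called genes were sorted by what each line did. Genes with an adjusted p below 0.05 in both lines and opposite signs numbered 265 for up in MDA-MB-231 and down in Hs-578T (1.93% of genes tested) and 496 for the reverse (3.61%). A gene was assigned to 1 line where that line passed the fold thresholds and the 95% interval of the change in the other line lay within 1.5-fold in either direction. In MDA-MB-231 cells only, 44 genes rose (0.32%) and 43 fell (0.313%), and in Hs-578T cells only, 212 rose (1.54%) and 207 fell (1.51%). A further 18 genes (0.131%) changed in the same direction to an unequal extent, and 499 (3.63%) met none of these definitions. Leaving out 1 MDA-MB-231 library moved the opposite classes most, to 120 genes without parental replicate 1 and 257 without parental replicate 2.

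Many genes assigned to 1 line were low in the other line. Of the 44 and 43 genes that rose or fell only in MDA-MB-231 cells, 13 (29.5%) and 15 (34.9%) averaged 1 RPKM or more in Hs-578T cells. Of the 212 and 207 genes assigned to Hs-578T cells, 92 (43.4%) and 98 (47.3%) averaged 1 RPKM or more in MDA-MB-231 cells. In the other line, 15, 16, 82 and 72 genes of these 4 groups had 3 reads or fewer in each of 4 libraries, and a change there was not detectable at this depth.

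**Figure D1:**
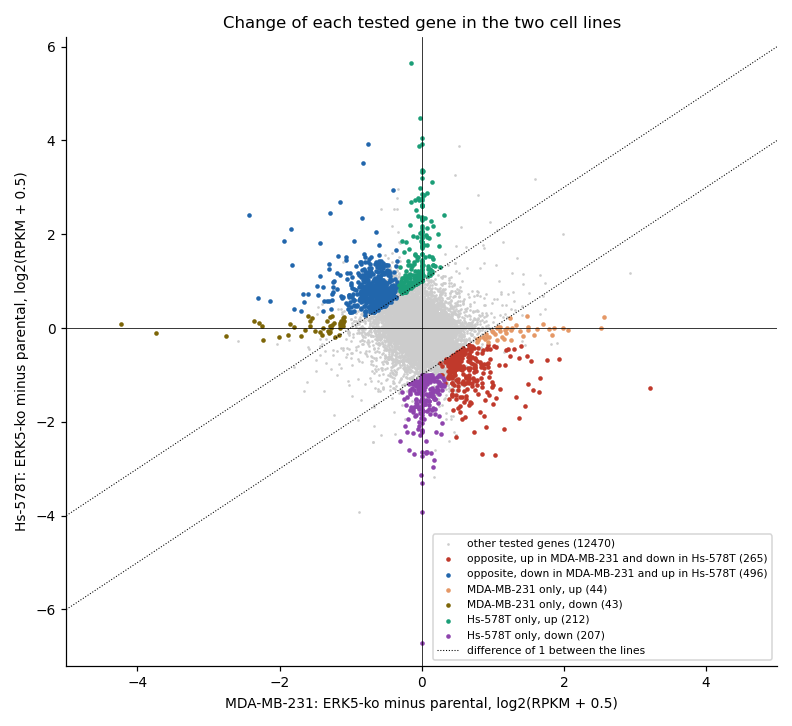
Change on ERK5 knockout (ERK5-ko minus parental, log2(RPKM + 0.5)) in MDA-MB-231 cells (x axis) against Hs-578T cells (y axis), 1 point per gene for 13737 genes, coloured by class. The 265 and 496 opposite genes lie in the lower right and upper left quadrants, the genes of 1 line lie along the axes, and the dotted lines mark a difference of 1.

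The largest difference among the opposite genes was in CDYL2 (chr16:80597906-80804329, GRCh38), a chromodomain protein of the family that reads histone methylation. In the order used throughout, parental replicates 1 and 2 and then ERK5-ko replicates 1 and 2, it went from 2.37 and 2.39 to 0.0193 and 0.0524 RPKM in MDA-MB-231 and from 0.0764 and 0.0421 to 2.06 and 2.95 RPKM in Hs-578T cells. The groups did not overlap in either line, and the gene was nearly silent in ERK5-ko cells of one line and in parental cells of the other (difference -4.84 ± 0.19, adjusted p = 6.05e-08, here and below on the log2 scale with the SE). AOX1 (chr2:200585868-200677064), an aldehyde oxidase of the liver and other tissues, went from 14.4 and 14.2 to 3.87 and 3.41 RPKM in MDA-MB-231 and from 3.38 and 2.33 to 13.1 and 14.4 RPKM in Hs-578T cells, so that the levels in the 2 lines changed places (difference -3.94 ± 0.24, adjusted p = 1.24e-06). CLIC2 (chrX:155276211-155334657), an intracellular chloride channel family protein, went from 4.53 and 3.97 to 2.31 and 2.29 RPKM in MDA-MB-231 and from 1.23 and 0.907 to 22.1 and 23.99 RPKM in Hs-578T cells. Its fall in MDA-MB-231 cells was -0.76 ± 0.13 and its rise in Hs-578T cells 3.91 ± 0.13 (difference -4.67 ± 0.18, adjusted p = 6.57e-08).

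Other members of this class spanned unrelated functions. IL7R (chr5:35852695-35879603), the receptor chain for interleukin-7, went from 7.796 and 7.896 to 4.43 and 4.002 RPKM in MDA-MB-231 and from 2.03 and 2.02 to 23.8 and 34.5 RPKM in Hs-578T cells (difference -4.35 ± 0.36, adjusted p = 8.1e-06). Its fall in MDA-MB-231 cells had an adjusted p of 0.0484 and no longer passed in 6 of 8 fits that left out 1 library, whereas the difference itself passed in all 8. CES1 (chr16:55802851-55833337), a carboxylesterase that hydrolyses esters and drugs, went from 0.593 and 0.8905 to 0.0406 and 0.0734 RPKM in MDA-MB-231 and from 0.401 and 0.619 to 5.41 and 6.55 RPKM in Hs-578T cells. MDFI (chr6:41636882-41654246), an inhibitor of MyoD family factors, went from 2.47 and 4.04 to 0.64 and 0.311 RPKM in MDA-MB-231 and from 0.584 and 0.483 to 3.77 and 2.75 RPKM in Hs-578T cells. The groups of CES1 (difference -3.83 ± 0.21, adjusted p = 4.32e-07) and MDFI (difference -3.79 ± 0.33, adjusted p = 1.11e-05) did not overlap in either line.

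In the opposite direction, SECTM1 (chr17:82321024-82334074), a secreted and transmembrane protein that binds CD7, went from 15.2 and 18.6 to 32.3 and 37.8 RPKM in MDA-MB-231 and from 116 and 137 to 21.1 and 16.9 RPKM in Hs-578T cells (difference 3.74 ± 0.20, adjusted p = 3.83e-07). Parental Hs-578T cells were far above parental MDA-MB-231 cells, and Hs-578T-ERK5-ko cells were below MDA-MB-231-ERK5-ko cells. ABCC3 (chr17:50634777-50692252), an efflux pump for glucuronide conjugates and bile salts, went from 40.9 and 49.02 to 83.99 and 77.8 RPKM in MDA-MB-231 and from 38.5 and 46.4 to 6.64 and 5.76 RPKM in Hs-578T cells (difference 3.52 ± 0.17, adjusted p = 2.34e-07). Parental cells of the 2 lines overlapped in ABCC3, and the ERK5-ko cells did not. RCAN2 (chr6:46220736-46491972), a regulator of calcineurin, went from 1.26 and 1.31 to 3.72 and 3.29 RPKM in MDA-MB-231 and from 27.9 and 28.9 to 6.21 and 5.74 RPKM in Hs-578T cells (difference 3.32 ± 0.16, adjusted p = 3.01e-07).

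Smaller rises in MDA-MB-231 and falls in Hs-578T cells were seen for PALM and FBXO2. PALM (chr19:708939-748329), a lipid-anchored protein of the inner plasma membrane, went from 1.61 and 1.99 to 5.68 and 5.16 RPKM in MDA-MB-231 and from 3.97 and 4.81 to 0.768 and 0.808 RPKM in Hs-578T cells (difference 3.29 ± 0.18, adjusted p = 5.82e-07). FBXO2 (chr1:11648367-11655785), a substrate receptor of ubiquitin ligases that recognises glycoproteins, went from 3.32 and 3.68 to 10.8 and 10.1 RPKM in MDA-MB-231 and from 5.95 and 5.84 to 1.59 and 1.45 RPKM in Hs-578T cells (difference 3.12 ± 0.21, adjusted p = 2.35e-06). FBXO2 overlaps FBXO44 on the opposite strand, and the strand setting of the counting is not given in the sources used here. For both genes the parental and ERK5-ko groups did not overlap in either line.

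Among genes that rose only in Hs-578T cells, TMTC2 (chr12:82686880-83134870), a protein of the endoplasmic reticulum with tetratricopeptide repeats, was expressed in both lines. It was at 3.33 and 3.07 RPKM in parental and 3.09 and 3.13 RPKM in ERK5-ko MDA-MB-231 cells, and went from 0.186 and 0.248 to 9.23 and 11.03 RPKM in Hs-578T cells (difference -3.92 ± 0.16, adjusted p = 8.24e-08). The rise brought Hs-578T cells from far below MDA-MB-231 cells to above them. SGCD (chr5:155870344-156767788), a sarcoglycan of the dystrophin complex, was at 0 RPKM in all 4 MDA-MB-231 libraries and went from 1.39 and 1.66 to 18.8 and 22.1 RPKM in Hs-578T cells (difference -3.37 ± 0.20, adjusted p = 7.06e-07). KRTAP7-1 (chr21:30829039-30829759), a hair keratin associated protein, was also at 0 RPKM in MDA-MB-231 cells and went from 0.608 and 0.536 to 13.8 and 18.2 RPKM in Hs-578T cells (difference -3.93 ± 0.21, adjusted p = 3.91e-07).

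Genes that fell only in Hs-578T cells included secreted and mitochondrial proteins at or near 0 in MDA-MB-231 cells. ASPN (chr9:92456205-92482506), the small leucine-rich proteoglycan asporin, was at 0 RPKM in all 4 MDA-MB-231 libraries and went from 5.43 and 5.67 to 0.0812 and 0.141 RPKM in Hs-578T cells (difference 3.31 ± 0.15, adjusted p = 1.9e-07). PI15 (chr8:74824537-74855029), a secreted peptidase inhibitor, was at 0.00885 RPKM or less in MDA-MB-231 cells and went from 4.63 and 5.18 to 0.178 and 0.0508 RPKM in Hs-578T cells (difference 3.13 ± 0.18, adjusted p = 6.65e-07). COX7A1, a muscle-type subunit of cytochrome c oxidase, was 7.17 RPKM on average in Hs-578T parental cells and had no read in Hs-578T-ERK5-ko cells, which made it at least 27.5-fold lower against a floor of 3 reads per library (0.261 RPKM). SLC14A1 (chr18:45724127-45752520), a urea transporter, went from 12.9 and 13.3 to 1.21 and 0.824 RPKM in Hs-578T cells with 0.131 RPKM or less in MDA-MB-231 cells (difference 3.35 ± 0.32, adjusted p = 1.79e-05), but the interval of its change there (-0.32 to 0.66) was too wide to assign it to 1 line.

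**Figure D2:**
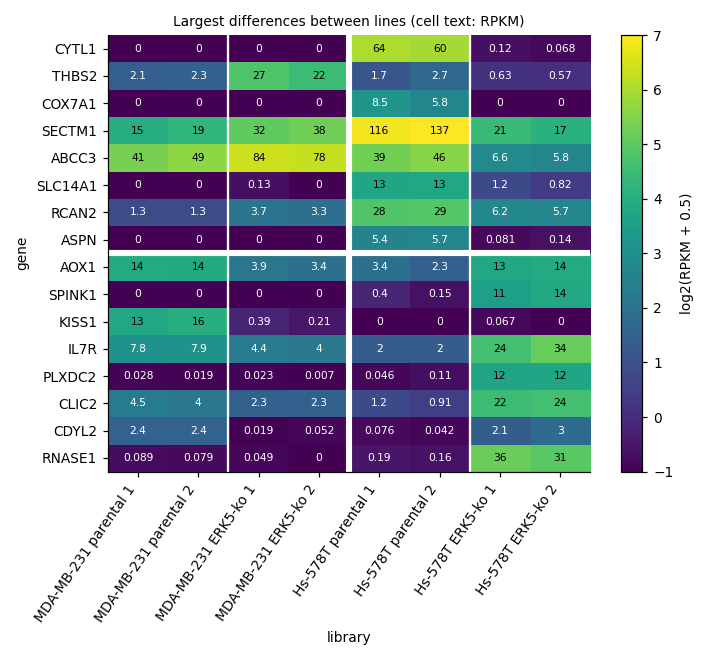
Log2(RPKM + 0.5) of the 16 genes with the largest negative and positive differences, 1 row per gene and 1 column per library, with the RPKM printed in each cell. The 2 libraries of a group are alike in each row, and CDYL2 and AOX1 change places between the lines while CYTL1 and COX7A1 are at 0 in MDA-MB-231 cells.

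Rises only in MDA-MB-231 cells included ligands of the EGF receptor. EREG (chr4:74365143-74388751), epiregulin, went from 8.14 and 8.42 to 49.2 and 50.8 RPKM in MDA-MB-231 and was at 0 RPKM in all 4 Hs-578T libraries (difference 2.52 ± 0.14, adjusted p = 4.32e-07). AREG, amphiregulin, went from 64.03 and 63.9 to 194 and 202 RPKM in MDA-MB-231 and was at 0.134 RPKM or less in Hs-578T cells (difference 1.64 ± 0.20, adjusted p = 8.1e-05). Of 12 EGF receptor family members and ligands tested, 4 (33.3%) had a higher difference against 5.68% of all genes and 1 a lower one. Of the 4, 3 (EREG, AREG and the receptor ERBB3) rose in MDA-MB-231 cells only, against 0.32% of all genes. The lower one, the ligand NRG1, went from 14.2 and 13.4 to 12.3 and 9.83 RPKM in MDA-MB-231 (adjusted p = 0.289) and from 17.7 and 21.4 to 38.7 and 49.3 RPKM in Hs-578T cells (adjusted p = 0.000604). The call of ERBB3 (difference 1.03 ± 0.20, adjusted p = 0.00214) was lost without MDA-MB-231 ERK5-ko replicate 1 (0.859), Hs-578T parental replicate 2 (0.909) or Hs-578T ERK5-ko replicate 1 (0.939).

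Other genes that rose in MDA-MB-231 cells alone included a receptor, a growth factor and a transcription factor. CALCR (chr7:93424487-93574730), the calcitonin receptor, went from 1.505 and 1.72 to 8.37 and 7.43 RPKM in MDA-MB-231 with no read in Hs-578T cells (difference 1.99 ± 0.14, adjusted p = 3.19e-06). ATOH8 (chr2:85751344-85788066), a basic helix-loop-helix factor, went from 0.709 and 0.745 to 4.19 and 3.699 RPKM in MDA-MB-231. Hs-578T cells expressed ATOH8 at a higher level that stayed at 15.3 and 15.1 RPKM in parental and 16 and 14.3 RPKM in ERK5-ko libraries (Hs-578T change 0.00 ± 0.11, difference 1.86 ± 0.16, adjusted p = 1.01e-05). PDGFB, the B chain of platelet-derived growth factor, went from 2.15 and 1.99 to 7.39 and 6.203 RPKM in MDA-MB-231 with 0.123 RPKM or less in Hs-578T cells (difference 1.48 ± 0.21, adjusted p = 0.000256).

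Genes that fell only in MDA-MB-231 cells included an adhesion molecule, a secreted binding protein, an enzyme and a transcriptional repressor. CDH4 (chr20:61252426-61940617), retinal cadherin, went from 11.3 and 10.96 to 3.06 and 2.64 RPKM in MDA-MB-231 and was at 0.00961 RPKM or less in Hs-578T cells (difference -1.83 ± 0.14, adjusted p = 5.66e-06). IGFBP1, a secreted binding protein for insulin-like growth factors, went from 17.3 and 17.4 to 7.09 and 8.05 RPKM in MDA-MB-231 with no read in Hs-578T cells (difference -1.15 ± 0.15, adjusted p = 0.00013). PHGDH, the entry enzyme of serine synthesis, went from 5.13 and 4.71 to 1.94 and 1.49 RPKM in MDA-MB-231, whereas Hs-578T cells were at 397 and 352 RPKM in parental and 351 and 343 RPKM in ERK5-ko libraries (Hs-578T change -0.11 ± 0.12, difference -1.19 ± 0.17, adjusted p = 0.000345). HES1, a transcriptional repressor downstream of Notch, went from 7.18 and 7.36 to 2.27 and 1.96 RPKM in MDA-MB-231 and was at 12.8 and 10.7 RPKM and 13.1 and 13.1 RPKM in Hs-578T cells (difference -1.73 ± 0.17, adjusted p = 2.72e-05). Among 17 Notch genes tested, 4 (23.5%, against 7.31% of all genes) had a lower difference and 0 a higher one. The median difference of the Notch list was nevertheless 0.19, with 11 members above 0 and 6 below.

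The most uniform functional group was mitosis, with 37 genes for kinetochore, spindle and mitotic kinase proteins. All 37 passed the filter, 36 (97.3%) had a lower difference against 7.31% of all genes, and 0 had a higher one. Of them 35 were opposite, down in MDA-MB-231 and up in Hs-578T cells, against 3.61% of all genes. The median change was -0.78 in MDA-MB-231 cells and 0.74 in Hs-578T cells, and the median difference was -1.55, with members from -2.72 to -0.66. The median level of the list, on the log2(RPKM + 0.5) scale, was 6.50 and 6.59 in MDA-MB-231 parental, 5.77 and 5.68 in MDA-MB-231-ERK5-ko, 5.20 and 5.13 in Hs-578T parental, and 5.86 and 6.003 in Hs-578T-ERK5-ko libraries. For all 37 members, both MDA-MB-231-ERK5-ko libraries lay below both parental ones (true of 38.5% of all genes tested), and both Hs-578T-ERK5-ko libraries lay above theirs (35.6%).

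The fold thresholds ask more of a fall (below 0.5) than of a rise (above 1.5). Under them 4 members went down in MDA-MB-231 and 30 went up in Hs-578T cells. The median changes were alike in size (-0.78 and 0.74), so these counts do not compare the size of the responses. By adjusted p alone, which 10.4% of all genes passed for a fall in MDA-MB-231 and 19.7% for a rise in Hs-578T, 36 fell and 37 rose. Leaving out 1 library kept 35 or 36 members called, but the number of opposite members was 23 without MDA-MB-231 parental replicate 2. When gene length and GC content were corrected for, a setting chosen after the data were seen, 36 members were called. In bulk RNA, a smaller share of cells in division and less RNA per dividing cell cannot be told apart.

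The members with the most negative differences were MKI67, CENPE, CENPF, MAD2L1 and KIF11. MKI67, which encodes the proliferation antigen Ki-67, went from 59.2 and 56.98 to 27.1 and 23.7 RPKM in MDA-MB-231 and from 4.97 and 11.2 to 21.97 and 23.3 RPKM in Hs-578T cells (difference -2.71 ± 0.45, adjusted p = 0.000722). Its 2 Hs-578T parental libraries differed from each other more than the ERK5-ko libraries did, and it kept its opposite class in 4 of 8 fits that left out 1 library. CENPE, a kinetochore motor, went from 33.2 and 29.7 to 16.4 and 13.2 RPKM in MDA-MB-231 and from 4.81 and 6.24 to 15.5 and 17.9 RPKM in Hs-578T cells (difference -2.59 ± 0.36, adjusted p = 0.00024). CENPF, a large kinetochore protein, went from 119 and 105 to 59.4 and 44.9 RPKM in MDA-MB-231 (adjusted p = 0.0663) and from 14.2 and 31.8 to 53.2 and 60.9 RPKM in Hs-578T cells (adjusted p = 0.0128, difference -2.51 ± 0.54, adjusted p = 0.00353). MAD2L1, the checkpoint protein MAD2, went from 59.5 and 51.5 to 35.2 and 34.9 RPKM in MDA-MB-231 and from 19.4 and 13.7 to 40.8 and 45.3 RPKM in Hs-578T cells (difference -2.02 ± 0.23, adjusted p = 6.53e-05). KIF11, the motor that separates spindle poles, went from 36.2 and 35.1 to 18.9 and 16.5 RPKM in MDA-MB-231 and from 8.18 and 9.29 to 16.7 and 18.1 RPKM in Hs-578T cells (difference -1.95 ± 0.24, adjusted p = 0.000105) and kept its class in all 8 such fits. The groups of these genes did not overlap in either line.

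Genes of mitosis are known to carry CCAAT boxes, bound by NF-Y, and the cell cycle element TTTGAA (CHR) close to their start sites. The 250 bases before the start were read for 30 of 37 members from RefSeq (GRCh38.p14), and both strands were searched. CCAAT was present in 24 (80.0%) against 33.0% of 27305 promoter windows of that length and 35.2% of the 10921 windows of tested genes. TTTGAA was present in 18 (60.0%) against 13.6% and 8.55%. These letters, and the E2F letters below, were chosen after the mitosis values were seen, and a match describes the sequence and not a bound site. Of the 5 members above, CENPE held neither motif in its window, and CENPF held CCAAT or its reverse at 3 places and no TTTGAA. The windows of the other 3 are printed 5′ to 3′ on the strand of the gene, chosen because they hold 1 or both motifs in genes that changed in opposite directions in the 2 lines, and capitals mark the letters CCAAT and the element TTTGAA or, where they lie on the other strand, the letters ATTGG and the letters TTCAAA.
MKI67 (chr10:128126424-128126673, minus strand): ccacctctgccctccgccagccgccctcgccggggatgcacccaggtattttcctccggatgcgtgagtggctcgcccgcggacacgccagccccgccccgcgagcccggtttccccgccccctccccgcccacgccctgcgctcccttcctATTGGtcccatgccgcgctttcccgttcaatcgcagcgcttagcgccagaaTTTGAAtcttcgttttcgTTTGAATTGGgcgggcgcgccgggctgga
MAD2L1 (chr4:120066849-120067098, minus strand): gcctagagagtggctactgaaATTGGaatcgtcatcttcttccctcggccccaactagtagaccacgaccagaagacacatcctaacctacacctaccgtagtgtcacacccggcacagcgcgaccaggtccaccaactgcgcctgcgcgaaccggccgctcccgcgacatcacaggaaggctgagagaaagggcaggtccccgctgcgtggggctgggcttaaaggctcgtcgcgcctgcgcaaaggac
KIF11 (chr10:92592880-92593129, plus strand): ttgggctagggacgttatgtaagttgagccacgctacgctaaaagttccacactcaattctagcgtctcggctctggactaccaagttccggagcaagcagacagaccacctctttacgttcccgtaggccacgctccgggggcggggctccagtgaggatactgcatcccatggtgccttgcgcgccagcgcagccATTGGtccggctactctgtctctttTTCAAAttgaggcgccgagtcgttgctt
MKI67 held ATTGG 98 and 24 bases and TTTGAA 47 and 29 bases before its start, the last of these overlapping the nearer ATTGG. MAD2L1 held ATTGG at 229 bases and no TTTGAA. KIF11 held ATTGG at 53 bases and TTCAAA at 28 bases.

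DNA replication genes had lower differences as well. Of 40 tested, 29 (72.5%, against 7.31% of all genes) had a lower and 0 a higher difference. Of them 19 were opposite (3.61% of all genes), and 4 (MCM2, MCM5, CCNE2 and E2F1) rose in Hs-578T cells only (1.54% of all genes). Median changes were -0.44 in MDA-MB-231 cells and 0.79 in Hs-578T cells, with a median difference of -1.27. Both ERK5-ko libraries were below both parental libraries in MDA-MB-231 for 37 members (38.5% of all genes tested) and above both in Hs-578T for 39 (35.6%). The number of opposite members was 7 without MDA-MB-231 parental replicate 2, 9 without ERK5-ko replicate 1 and 11 without parental replicate 1, while 24 to 33 members stayed called in the 8 fits that left out 1 library.

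The named members cover the steps from origin licensing to the replicative helicase. GINS4, a subunit of the GINS complex of that helicase, went from 23.4 and 23.5 to 10.9 and 11.01 RPKM in MDA-MB-231 and from 31.7 and 27.8 to 79.1 and 85.2 RPKM in Hs-578T cells (difference -2.51 ± 0.19, adjusted p = 4.52e-06). MCM10, which helps to activate origins, went from 21.5 and 21.8 to 13.8 and 14.4 RPKM in MDA-MB-231 and from 3.38 and 3.45 to 10.5 and 11.5 RPKM in Hs-578T cells (difference -2.15 ± 0.16, adjusted p = 3.38e-06). CDC6, which loads the helicase, went from 82.3 and 80.8 to 61.3 and 57.2 RPKM in MDA-MB-231 and from 15.97 and 16.3 to 35.9 and 40.1 RPKM in Hs-578T cells (difference -1.67 ± 0.12, adjusted p = 3.19e-06). MCM4, a subunit of the MCM ring, went from 169.9 and 173 to 114 and 113 RPKM in MDA-MB-231 and from 101 and 98.4 to 204 and 220.4 RPKM in Hs-578T cells (difference -1.68 ± 0.13, adjusted p = 4.33e-06). These 4 genes kept their opposite class in every fit that left out 1 library, and their groups did not overlap. POLA1, the catalytic subunit of primase-polymerase alpha, rose in Hs-578T cells (1.17 ± 0.16, adjusted p = 0.000221) and changed by -0.49 ± 0.16 in MDA-MB-231 cells (adjusted p = 0.0591).

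Promoters of this list were also searched for the E2F letters TTTCCCGC and TTTGGCGC. In 33 of 40 members with a window, TTTCCCGC was present in 7 (21.2%) against 1.42% of all windows and 2.19% of those of tested genes, and TTTGGCGC in 5 (15.2%) against 0.542% and 0.87%. CCAAT was present in 19 (57.6%) and TTTGAA in 1 (3.03%). The other 8 motifs searched were AP-1 (TGANTCA), TEAD (CATTCC), the interferon response element, the E-box CACGTG, the ZEB or SNAI box CACCTG, the MEF2 site, NRF2 (TGACNNNGC) and CRE (TGACGTCA). Before mitosis genes they were present in 0 to 6 of 30 windows, with CRE in 4 (13.3%, against 2.76% of tested genes) and MEF2 in 2 (6.67%, against 1.79%). Before replication genes they were present in 0 to 6 of 33 windows, with CRE in 3 (9.09%) and MEF2 in 0. FOXM1, a transcription factor of the late cell cycle, went from 88.8 and 95.5 to 50.9 and 52.6 RPKM in MDA-MB-231 and from 48.8 and 54.05 to 82.2 and 85.4 RPKM in Hs-578T cells (difference -1.53 ± 0.23, adjusted p = 0.000383). The histone methyltransferase EZH2 went from 35.9 and 36.4 to 21.8 and 22.2 RPKM in MDA-MB-231 and from 6.798 and 6.58 to 8.42 and 9.29 RPKM in Hs-578T cells (difference -1.09 ± 0.15, adjusted p = 0.000245), which put both genes in the same opposite class.

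**Figure D3:**
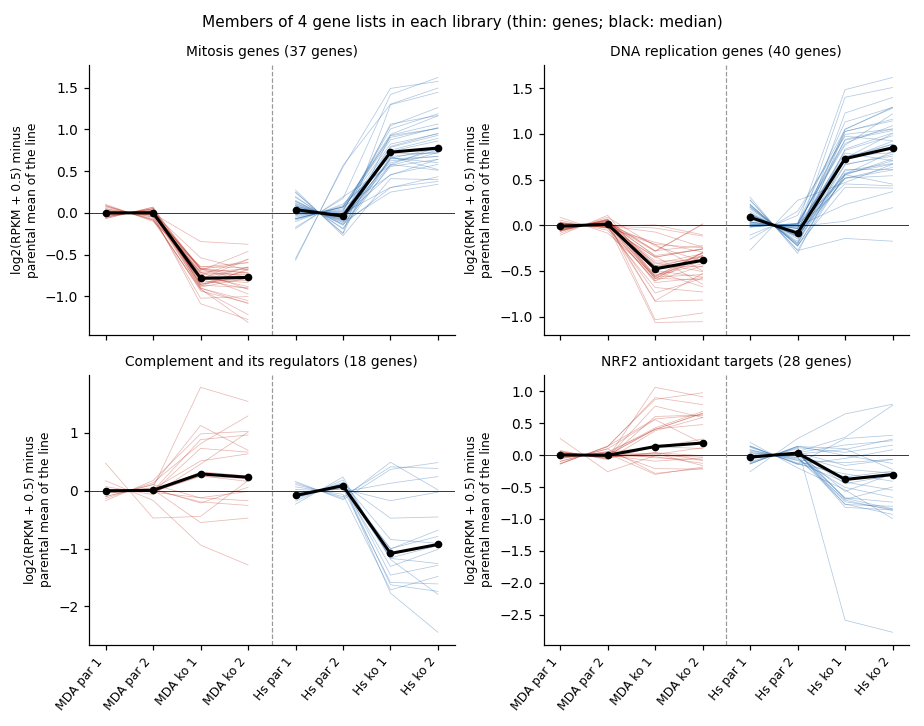
Members of 4 gene lists in the 8 libraries, as log2(RPKM + 0.5) minus the mean of the parental libraries of the same line (y axis), with thin red (MDA-MB-231) and blue (Hs-578T) lines for genes and black points joined by a line for the median. The mitosis (37 genes) and DNA replication (40 genes) medians are below 0 in MDA-MB-231-ERK5-ko and above 0 in Hs-578T-ERK5-ko libraries, and the complement (18 genes) and NRF2 (28 genes) medians are the reverse.

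Complement showed the reverse of the cell cycle lists. Complement is a set of secreted proteases and binding proteins that opsonise or lyse targets, together with inhibitors that protect host cells. Of 18 genes tested, 10 (55.6%) had a higher difference against 5.68% of all genes, and 0 a lower one. The median difference was 1.53, with a median change of 0.26 in MDA-MB-231 cells and -0.98 in Hs-578T cells. Of the 10, 8 were opposite, up in MDA-MB-231 and down in Hs-578T cells (C1R, C1S, C4A, C4B, CFB, CFD, CFI and C1QTNF1), and 2 fell in Hs-578T cells only (C2 and SERPING1). Those classes held 1.93% and 1.51% of all genes. C1QTNF1 encodes a secreted relative of C1q and not a complement component, and SERPING1 encodes the C1 inhibitor. C4A and C4B are near-identical copies whose reads may be split by the counting, so their separate values are uncertain. The number called was 10 in each fit that left out 1 library, and the number of opposite members was 4 without MDA-MB-231 parental replicate 1 and 5 without MDA-MB-231 ERK5-ko replicate 2.

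The proteases that start the classical pathway were far more abundant in Hs-578T cells. C1R went from 6.67 and 8.62 to 15.4 and 15.9 RPKM in MDA-MB-231 and from 288 and 326 to 136 and 128 RPKM in Hs-578T cells (difference 2.21 ± 0.16, adjusted p = 3.31e-06). C1S went from 0.5803 and 0.573 to 1.48 and 1.596 RPKM in MDA-MB-231 and from 116 and 137 to 45.5 and 51.2 RPKM in Hs-578T cells (difference 2.29 ± 0.17, adjusted p = 3.68e-06). CFB, the protease of the alternative pathway, went from 34.4 and 33.2 to 56.3 and 53.9 RPKM in MDA-MB-231 and from 28.1 and 29.6 to 9.28 and 9.11 RPKM in Hs-578T cells (difference 2.29 ± 0.18, adjusted p = 5.81e-06), so that parental cells were alike and ERK5-ko cells were not. CFI, the protease that inactivates C3b and C4b, went from 1.16 and 1.28 to 5.41 and 4.49 RPKM in MDA-MB-231 and from 9.13 and 11.9 to 4.39 and 5.17 RPKM in Hs-578T cells (difference 2.72 ± 0.20, adjusted p = 4.01e-06), and ERK5-ko cells of the 2 lines came to similar levels. C1R overlaps C1RL and CFB overlaps C2 on the same strand. The membrane inhibitors CD46, CD55 and CD59 were not called.

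Of 28 targets of the antioxidant factor NRF2, those called had higher differences too. NRF2 induces genes for detoxification, glutathione synthesis and iron handling. A higher difference was called for 9 (32.1%, against 5.68% of all genes) and a lower one for 0, with median changes of 0.16 in MDA-MB-231 cells and -0.37 in Hs-578T cells. The called members were NQO1, HMOX1, ME1, FTH1, FTL, AKR1C1, AKR1C2, ABCC3 and EPHX1, which detoxify quinones and epoxides, degrade heme, store iron, reduce carbonyls and make NADPH. GCLC and GCLM of glutathione synthesis and TXN and SRXN1 of the thioredoxin system were not called. TXNRD1 was not called either and rose in both lines, by 0.99 in MDA-MB-231 (adjusted p = 0.00125) and 0.53 in Hs-578T cells (adjusted p = 0.017). SLC7A11, also without a call, rose in Hs-578T cells by 0.72 (adjusted p = 0.00893). These names were chosen after their values were seen. By adjusted p alone, 15 of the 28 fell and 3 rose in Hs-578T cells, each true of 19.7% of all genes. Of the 9, 8 were opposite, up in MDA-MB-231 and down in Hs-578T cells, a class that held 1.93% of all genes. The number of opposite members was 3 without MDA-MB-231 parental replicate 1, 4 without parental replicate 2 or ERK5-ko replicate 2, and 5 without Hs-578T ERK5-ko replicate 1.

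EPHX1, microsomal epoxide hydrolase, went from 50.8 and 61.7 to 103 and 110.5 RPKM in MDA-MB-231 and from 98.1 and 103 to 62.8 and 55.98 RPKM in Hs-578T cells (difference 1.68 ± 0.16, adjusted p = 2.18e-05) and was opposite in all 8 fits that left out 1 library. HMOX1, heme oxygenase, went from 25.5 and 26.4 to 35.03 and 41.96 RPKM in MDA-MB-231 and from 49.99 and 52.1 to 31.9 and 30.4 RPKM in Hs-578T cells (difference 1.26 ± 0.16, adjusted p = 0.000107). The ferritin chains, which store iron, moved together. FTH1 went from 988 and 988 to 1308 and 1555 RPKM in MDA-MB-231 and from 2486 and 2605 to 1534 and 1415 RPKM in Hs-578T cells (difference 1.32 ± 0.17, adjusted p = 0.000121). FTL went from 1538 and 1648 to 2101 and 2508 RPKM in MDA-MB-231 and from 2509 and 2390.0 to 1439 and 1287 RPKM in Hs-578T cells (difference 1.38 ± 0.23, adjusted p = 0.000864). The groups did not overlap, but the opposite class of FTL was lost in 6 of the 8 fits and that of FTH1 in 3. ME1, the cytosolic malic enzyme, also counted among 4 opposite members of 25 fatty acid synthesis genes, with FADS3, SCD5 and ACSS2. That class held 1.93% of all genes.

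Among genes of antigen presentation, 4 of 10 HLA class II genes tested (40%, against 7.31% of all genes) had a lower difference and 0 a higher one. Of the 4, 3 were opposite, down in MDA-MB-231 and up in Hs-578T cells, against 3.61% of all genes. HLA-DPA1 went from 29.8 and 30.99 to 10.7 and 13.7 RPKM in MDA-MB-231 and from 0.353 and 0.455 to 3.62 and 5.42 RPKM in Hs-578T cells (difference -3.75 ± 0.24, adjusted p = 1.37e-06). HLA-DPB1 went from 19.2 and 18.8 to 7.11 and 6.29 RPKM in MDA-MB-231 and from 0.439 and 0.4299 to 2.801 and 2.804 RPKM in Hs-578T cells (difference -3.26 ± 0.17, adjusted p = 4.27e-07). These 2 genes form 1 heterodimer and overlap on opposite strands. HLA-DRB1 went from 22.2 and 22.9 to 4.35 and 5.21 RPKM in MDA-MB-231 and from 0.0409 and 0.0451 to 0.356 and 0.2703 RPKM in Hs-578T cells (difference -2.71 ± 0.17, adjusted p = 1.46e-06). Its partner HLA-DRA went from 44.8 and 42.2 to 10.7 and 12.7 RPKM in MDA-MB-231 with 0.0338 RPKM or less in Hs-578T cells (difference -1.95 ± 0.17, adjusted p = 8.8e-06). In Hs-578T-ERK5-ko cells the DP genes reached several RPKM while the DR genes stayed under 0.4 RPKM. HLA genes are polymorphic and have close copies, so reads may be split between them.

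Genes of the class I pathway were called in both directions. B2M, the light chain, went from 741 and 689.6 to 991 and 1019 RPKM in MDA-MB-231 and from 1166 and 1027 to 747 and 698 RPKM in Hs-578T cells (difference 1.09 ± 0.21, adjusted p = 0.00195). The peptide transporter subunit TAP2 had the opposite pattern, from 38.3 and 42.6 to 26.4 and 28.2 RPKM in MDA-MB-231 and from 21.4 and 19.4 to 36.7 and 41.2 RPKM in Hs-578T cells (difference -1.48 ± 0.21, adjusted p = 0.000252). B2M lost its call without Hs-578T parental replicate 1, where its difference was 0.999.

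Interferon stimulated genes had 8 higher (16.3%, against 5.68% of all genes) and 4 lower differences (8.16%, against 7.31%) among 49 tested. DDX58, the RNA sensor RIG-I, went from 21.5 and 21.5 to 13.2 and 12.4 RPKM in MDA-MB-231 and from 2.77 and 2.81 to 4.43 and 4.59 RPKM in Hs-578T cells (difference -1.33 ± 0.18, adjusted p = 0.000208). OAS3, an oligoadenylate synthetase, went from 25.6 and 24.1 to 16.7 and 16.1 RPKM in MDA-MB-231 and from 1.496 and 1.62 to 2.83 and 3.21 RPKM in Hs-578T cells (difference -1.36 ± 0.15, adjusted p = 5.58e-05). IFI27 had the reverse pattern, from 77.5 and 75.6 to 131 and 150.4 RPKM in MDA-MB-231 and from 2.03 and 1.19 to 0.827 and 0.478 RPKM in Hs-578T cells (difference 1.73 ± 0.29, adjusted p = 0.000734). RSAD2, the antiviral enzyme viperin, fell only in MDA-MB-231 cells, from 11.4 and 10.5 to 4.49 and 4.06 RPKM in MDA-MB-231, and was at 0.517 and 0.366 RPKM and 0.515 and 0.453 RPKM in Hs-578T cells (difference -1.33 ± 0.20, adjusted p = 0.000339). CD274, the checkpoint ligand PD-L1, rose only in Hs-578T cells, from 0.779 and 0.637 to 1.93 and 2.13 RPKM in Hs-578T cells, and was at 12.8 and 12.9 RPKM and 12.4 and 11.4 RPKM in MDA-MB-231 cells (difference -1.18 ± 0.16, adjusted p = 0.000211).

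Cytokines and chemokines gave 4 higher (18.2%, against 5.68% of all genes) and 1 lower difference (4.55%, against 7.31%) among 22. IL11, a cytokine of the interleukin-6 family, went from 6.32 and 7.25 to 1.21 and 0.779 RPKM in MDA-MB-231 and from 11.9 and 10.2 to 18.4 and 16.7 RPKM in Hs-578T cells (difference -2.95 ± 0.20, adjusted p = 2.35e-06). CXCL16, a transmembrane chemokine, went from 1.85 and 2.03 to 3.14 and 4.12 RPKM in MDA-MB-231 and from 2.902 and 3.02 to 1.63 and 1.73 RPKM in Hs-578T cells (difference 1.42 ± 0.18, adjusted p = 0.000129). CCL28, a mucosal chemokine, went from 5.38 and 5.49 to 8.899 and 8.803 RPKM in MDA-MB-231 and from 0.721 and 0.648 to 0.163 and 0.151 RPKM in Hs-578T cells (difference 1.505 ± 0.17, adjusted p = 5.08e-05). The groups of these 3 genes did not overlap in either line. Among NF-kappaB feedback genes 2 of 19 were called, both lower (10.5%, against 7.31% of all genes). BIRC3, 1 of them, was at 1.27 and 1.503 RPKM in parental and 4.88 and 7.63 RPKM in ERK5-ko Hs-578T libraries (difference -2.11 ± 0.25, adjusted p = 7.61e-05).

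Feedback genes of the related kinases ERK1 and ERK2, which are induced when those kinases are active, had 5 lower (35.7%, against 7.31% of all genes) and 0 higher differences among 14. Of the 5, 4 were opposite, down in MDA-MB-231 and up in Hs-578T cells, against 3.61% of all genes. SPRY4, an inhibitor of receptor signaling, went from 73.01 and 72.5 to 45.6 and 44.2 RPKM in MDA-MB-231 and from 4.85 and 5.51 to 7.64 and 7.31 RPKM in Hs-578T cells (difference -1.18 ± 0.13, adjusted p = 4.14e-05). The factor ETV5 went from 113 and 113 to 75.7 and 73.95 RPKM in MDA-MB-231 and from 77.4 and 85.98 to 119 and 121 RPKM in Hs-578T cells (difference -1.15 ± 0.12, adjusted p = 3.06e-05). ETV4 went from 60.2 and 61.6 to 45.2 and 50.3 RPKM in MDA-MB-231 and from 10.1 and 9.47 to 25.6 and 28.6 RPKM in Hs-578T cells (difference -1.77 ± 0.15, adjusted p = 7.35e-06). The phosphatase DUSP4 rose in Hs-578T cells only, from 1.011 and 0.955 to 3.296 and 3.103 RPKM in Hs-578T cells, and was at 77.9 and 78.9 RPKM and 85.4 and 81.7 RPKM in MDA-MB-231 cells (difference -1.23 ± 0.14, adjusted p = 4.85e-05). SPRY4 and ETV5 were opposite in all 8 fits that left out 1 library, ETV4 in 4 and DUSP6, the remaining member, in 1. In the list for the ERK5 cascade itself, 1 of 11 genes was called, with a lower difference (9.09%, against 7.31% of all genes). It was SGK1, which went from 34.6 and 36.2 to 22.6 and 25.9 RPKM in MDA-MB-231 and from 12.4 and 9.74 to 24.4 and 25.8 RPKM in Hs-578T cells (difference -1.69 ± 0.18, adjusted p = 3.71e-05).

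Contractile genes, many of them markers of smooth muscle, had 6 lower (22.2%, against 7.31% of all genes) and 0 higher differences among 27. TAGLN, an actin-binding protein, went from 3.62 and 4.12 to 1.39 and 1.17 RPKM in MDA-MB-231 and from 201 and 143 to 449.9 and 424 RPKM in Hs-578T cells (difference -2.66 ± 0.21, adjusted p = 5.3e-06). Smoothelin (SMTN) went from 39.6 and 47.3 to 22.5 and 21.6 RPKM in MDA-MB-231 and from 20.8 and 22.6 to 35.1 and 31.5 RPKM in Hs-578T cells (difference -1.56 ± 0.16, adjusted p = 3.28e-05). ACTG2, enteric smooth muscle actin, rose in Hs-578T cells only, from 94.5 and 60.7 to 294 and 248 RPKM in Hs-578T cells, with 0.0355 RPKM or less in MDA-MB-231 cells (difference -1.82 ± 0.25, adjusted p = 0.000197). The actin-bundling protein SYNPO2 also rose in that line alone, from 2.36 and 3.51 to 8.54 and 9.05 RPKM in Hs-578T cells (difference -1.53 ± 0.21, adjusted p = 0.000254). In a separate list of 27 potassium channel genes, 3 had a higher (11.1%, against 5.68% of all genes) and 2 a lower difference (7.41%, against 7.31%). The 3 higher ones were opposite, up in MDA-MB-231 and down in Hs-578T cells (1.93% of all genes). Among the lower was KCNMB1, a smooth muscle subunit of calcium-activated potassium channels. KCNMB1 was at 0 RPKM in MDA-MB-231 cells and went from 0.129 and 0.171 to 4.32 and 4.11 RPKM in Hs-578T cells (difference -2.86 ± 0.13, adjusted p = 1.9e-07). PLAU, urokinase, was an abundant opposite gene of the plasminogen system, from 1125 and 1210.0 to 459 and 466 RPKM in MDA-MB-231 and from 237 and 234 to 368 and 339 RPKM in Hs-578T cells (difference -1.92 ± 0.13, adjusted p = 1.76e-06).

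Matrix genes were called in both directions. Of 42 matrix glycoproteins tested, 13 had a higher (31%, against 5.68% of all genes) and 6 a lower difference (14.3%, against 7.31%). MATN2, matrilin-2, went from 25.6 and 24.7 to 45.7 and 38.95 RPKM in MDA-MB-231 and from 10.4 and 11 to 1.69 and 2.18 RPKM in Hs-578T cells (difference 2.95 ± 0.18, adjusted p = 1.11e-06). NID2, a nidogen of basement membranes, fell only in Hs-578T cells, from 11.6 and 16.8 to 1.98 and 1.41 RPKM in Hs-578T cells, with 0.0186 RPKM or less in MDA-MB-231 cells (difference 2.74 ± 0.24, adjusted p = 1.1e-05). MFAP5, a microfibril protein, rose only in Hs-578T cells, from 0.196 and 0.108 to 5.54 and 6.55 RPKM in Hs-578T cells, and was at 0 RPKM in MDA-MB-231 cells (difference -3.33 ± 0.23, adjusted p = 2.49e-06). Among 23 proteoglycan core proteins, 6 were higher (26.1%) and 1 lower (4.35%), and decorin (DCN) went from 421 and 372 to 96.2 and 88.1 RPKM in Hs-578T cells with 0.0314 RPKM or less in MDA-MB-231 cells (difference 2.05 ± 0.22, adjusted p = 4.03e-05). Collagens gave 5 higher (17.2%) and 6 lower differences (20.7%) among 29.

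Matrix proteases were also called in both directions, beside 5.68% higher and 7.31% lower among all genes. Matrix metalloproteinases and their inhibitors had 5 higher (29.4%) and 1 lower difference (5.88%) among 17, and ADAM and ADAMTS proteases 2 higher (6.45%) and 7 lower (22.6%) among 31. These counts moved with single libraries, to 2 or 3 higher metalloproteinases and 4 higher ADAM and ADAMTS genes. ADAMTS14, which trims procollagen, went from 1.45 and 1.23 to 2.93 and 3.13 RPKM in MDA-MB-231 and from 7.97 and 9.35 to 3.35 and 2.49 RPKM in Hs-578T cells (difference 2.37 ± 0.20, adjusted p = 7.59e-06). ADAMTS9, which cleaves large proteoglycans, rose in Hs-578T cells only, from 0.0267 and 0.0147 to 2.57 and 3.65 RPKM in Hs-578T cells, and was at 1.68 and 1.51 RPKM and 1.61 and 1.42 RPKM in MDA-MB-231 cells (difference -2.84 ± 0.20, adjusted p = 2.46e-06). MMP11, stromelysin-3, fell only in Hs-578T cells, from 25.2 and 24.8 to 4.399 and 3.09 RPKM in Hs-578T cells, and was at 5.99 and 6.26 RPKM and 5.65 and 5.04 RPKM in MDA-MB-231 cells (difference 2.42 ± 0.19, adjusted p = 5.66e-06). FAP, a serine protease of activated fibroblasts, went from 42.9 and 45.8 to 19.2 and 18.1 RPKM in Hs-578T cells with 0.0558 RPKM or less in MDA-MB-231 cells (difference 1.19 ± 0.15, adjusted p = 0.000105). FAP was 1 of 4 called among 17 EMT genes (23.5%, against 5.68% of all genes), each with a higher difference. The median difference of the EMT list was nevertheless -0.008, with 7 members above 0 and 10 below.

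Epithelial genes were called in both directions, beside 5.68% higher and 7.31% lower among all genes. There were 5 higher (12.5%) and 3 lower differences (7.5%) among 40 junction and splicing genes. Keratins had 3 higher (17.6%) and 4 lower (23.5%) among 17. JUP, plakoglobin of desmosomes and adherens junctions, went from 73.04 and 83.5 to 143 and 144 RPKM in MDA-MB-231 and from 52.9 and 61.5 to 17.4 and 13.2 RPKM in Hs-578T cells (difference 2.75 ± 0.20, adjusted p = 3.83e-06). The tight junction protein F11R went from 24.3 and 24.4 to 35.1 and 30.8 RPKM in MDA-MB-231 and from 1.45 and 1.27 to 0.237 and 0.158 RPKM in Hs-578T cells (difference 1.84 ± 0.15, adjusted p = 8.34e-06). KRT8 of simple epithelia went from 676 and 744 to 1142 and 1146 RPKM in MDA-MB-231 and from 50.7 and 46.9 to 29.7 and 27.9 RPKM in Hs-578T cells (difference 1.44 ± 0.14, adjusted p = 1.89e-05). KRT14 of basal epithelia fell only in Hs-578T cells, from 38.7 and 35.7 to 5.195 and 5.88 RPKM in Hs-578T cells, with 0.0705 RPKM or less in MDA-MB-231 cells (difference 2.71 ± 0.19, adjusted p = 2.52e-06). The hair keratin KRT81 had the reverse pattern of KRT8, from 7.49 and 7.71 to 3.55 and 4.13 RPKM in MDA-MB-231 and from 0.743 and 0.904 to 2.45 and 2.54 RPKM in Hs-578T cells (difference -2.08 ± 0.20, adjusted p = 2.31e-05). KRT8 and KRT81 overlap KRT18 and KRT86 on the opposite strand. KRT18, named after its values were seen, did not share the pattern of KRT8. It rose in both lines, from 356 and 384 to 692 and 671 RPKM in MDA-MB-231 and from 213 and 141.5 to 547 and 596 RPKM in Hs-578T cells.

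Retinoid genes had 7 higher (36.8%, against 5.68% of all genes) and 0 lower differences among 19. ALDH1A3, which makes retinoic acid, went from 5.56 and 5.83 to 10.9 and 11.8 RPKM in MDA-MB-231 and from 43.4 and 51.2 to 25.5 and 30.2 RPKM in Hs-578T cells (difference 1.69 ± 0.18, adjusted p = 4.32e-05). DHRS3, which reduces retinal, rose in MDA-MB-231 cells only, from 2.29 and 2.21 to 5.95 and 6.201 RPKM in MDA-MB-231, and was at 26.9 and 25.7 RPKM and 21.1 and 22.6 RPKM in Hs-578T cells (difference 1.52 ± 0.17, adjusted p = 6.12e-05). CRABP2, which carries retinoic acid to its receptors, went from 3.59 and 3.63 to 5.89 and 5.72 RPKM in MDA-MB-231 and from 5.07 and 3.62 to 1.74 and 1.52 RPKM in Hs-578T cells (difference 1.79 ± 0.21, adjusted p = 6.39e-05), and its opposite class was lost in 4 of the 8 fits that left out 1 library. TGM2, a transglutaminase induced by retinoic acid, fell in both lines to an unequal extent, from 643 and 681 to 405 and 415 RPKM in MDA-MB-231 and from 17.8 and 20.03 to 3.49 and 2.76 RPKM in Hs-578T cells (difference 1.74 ± 0.14, adjusted p = 7.8e-06).

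Receptors and ligands of guidance and growth factor pathways gave small counts in both directions. Higher and lower differences made up 6.25% and 31.2% of the slit, netrin and robo genes and 15.8% and 7.89% of the Wnt genes below. Among all genes the shares were 5.68% and 7.31%. Of 16 slit, netrin and robo genes, 1 was higher and 5 lower, and NEO1, a netrin receptor, rose in Hs-578T cells only, from 0.981 and 1.11 to 7.55 and 7.68 RPKM in Hs-578T cells, while MDA-MB-231 cells were at 12.97 and 13.1 RPKM before and 13.2 and 11.9 RPKM after knockout (difference -2.44 ± 0.20, adjusted p = 5.98e-06). SEMA3D, a secreted semaphorin, went from 1.56 and 1.55 to 3.88 and 2.798 RPKM in MDA-MB-231 and from 1.52 and 1.51 to 0.2303 and 0.156 RPKM in Hs-578T cells, and SEMA7A, a membrane-anchored one, went from 38.3 and 40.1 to 23.1 and 22.8 RPKM in MDA-MB-231 and from 10.6 and 9.798 to 14.6 and 13.7 RPKM in Hs-578T cells. Their differences had opposite signs (difference 2.43 ± 0.22, adjusted p = 1.53e-05 and difference -1.21 ± 0.14, adjusted p = 6.09e-05). FGF1, an acidic fibroblast growth factor, went from 1.24 and 1.32 to 0.315 and 0.0658 RPKM in MDA-MB-231 and from 2.23 and 1.77 to 3.88 and 4.203 RPKM in Hs-578T cells (difference -2.26 ± 0.22, adjusted p = 2.42e-05). Among 38 Wnt genes, 6 were higher and 3 lower, and the secreted antagonist SFRP2 fell in Hs-578T cells only, from 39.99 and 42.2 to 11.1 and 9.95 RPKM in Hs-578T cells (difference 1.91 ± 0.16, adjusted p = 8.19e-06). IGFBP5 likewise fell in that line alone, from 8.36 and 11.9 to 1.67 and 1.32 RPKM in Hs-578T cells (difference 2.46 ± 0.22, adjusted p = 1.21e-05). SFRP2 was near 0 in MDA-MB-231 cells. IGFBP5 averaged 0.0516 RPKM in MDA-MB-231-ERK5-ko cells and had at most 3 reads in each MDA-MB-231 parental library.

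Metabolite transporters had 3 higher (9.38%, against 5.68% of all genes) and 1 lower difference (3.12%, against 7.31%) among 32. SLC2A12, a glucose transporter, went from 7.54 and 7.22 to 11.8 and 11.4 RPKM in MDA-MB-231 and from 3.88 and 4.46 to 1.16 and 1.23 RPKM in Hs-578T cells (difference 2.08 ± 0.15, adjusted p = 2.95e-06). SLC1A1, which takes up glutamate and cysteine, went from 4.33 and 3.36 to 8.905 and 8.44 RPKM in MDA-MB-231 and from 31.3 and 27.03 to 16.97 and 16.3 RPKM in Hs-578T cells (difference 1.87 ± 0.17, adjusted p = 1.63e-05). SLC7A2, which takes up cationic amino acids, had the reverse pattern, from 3.37 and 2.998 to 1.74 and 1.57 RPKM in MDA-MB-231 and from 2.56 and 3.18 to 6.42 and 6.98 RPKM in Hs-578T cells (difference -1.87 ± 0.19, adjusted p = 2.94e-05). SLC16A3, the lactate exporter MCT4, fell only in Hs-578T cells, from 36.4 and 34.7 to 8.44 and 6.302 RPKM in Hs-578T cells, and was at 319 and 314 RPKM and 352 and 376 RPKM in MDA-MB-231 cells (difference 2.41 ± 0.17, adjusted p = 2.64e-06).

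Against 5.68% of all genes with a higher and 7.31% with a lower difference, large families gave the following counts. Cytosolic ribosomal proteins had 0 higher and 1 lower difference among 85, nuclear-encoded respiratory chain subunits 1 and 0 among 82, mitochondrial ribosomal proteins 0 and 0 among 78, and proteasome subunits 0 and 2 among 39. Without regard to calls, 66 of the 85 cytosolic ribosomal and 68 of the 82 respiratory chain members had a difference above 0. The median differences were 0.281 and 0.278, close to the spread of these medians between replicates (SD 0.234 and 0.236). Zinc finger genes with ZNF names had 5 higher (1.08%) and 40 lower differences (8.64%) among 463, with a median difference of -0.32, and ZNF488 went from 3.27 and 3.76 to 2.12 and 2.14 RPKM in MDA-MB-231 and from 1.19 and 1.25 to 3.74 and 3.97 RPKM in Hs-578T cells (difference -1.95 ± 0.15, adjusted p = 4.19e-06). Clustered protocadherins had 18 higher (46.2%) and 1 lower (2.56%) among 39, but their gamma genes share exons, so that 1 change is counted many times, and there were 10 higher without MDA-MB-231 parental replicate 1 and 1 higher and 3 lower without Hs-578T parental replicate 2. Of 65 lists in all, 44 had at least 3 called members.

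**Figure D4:**
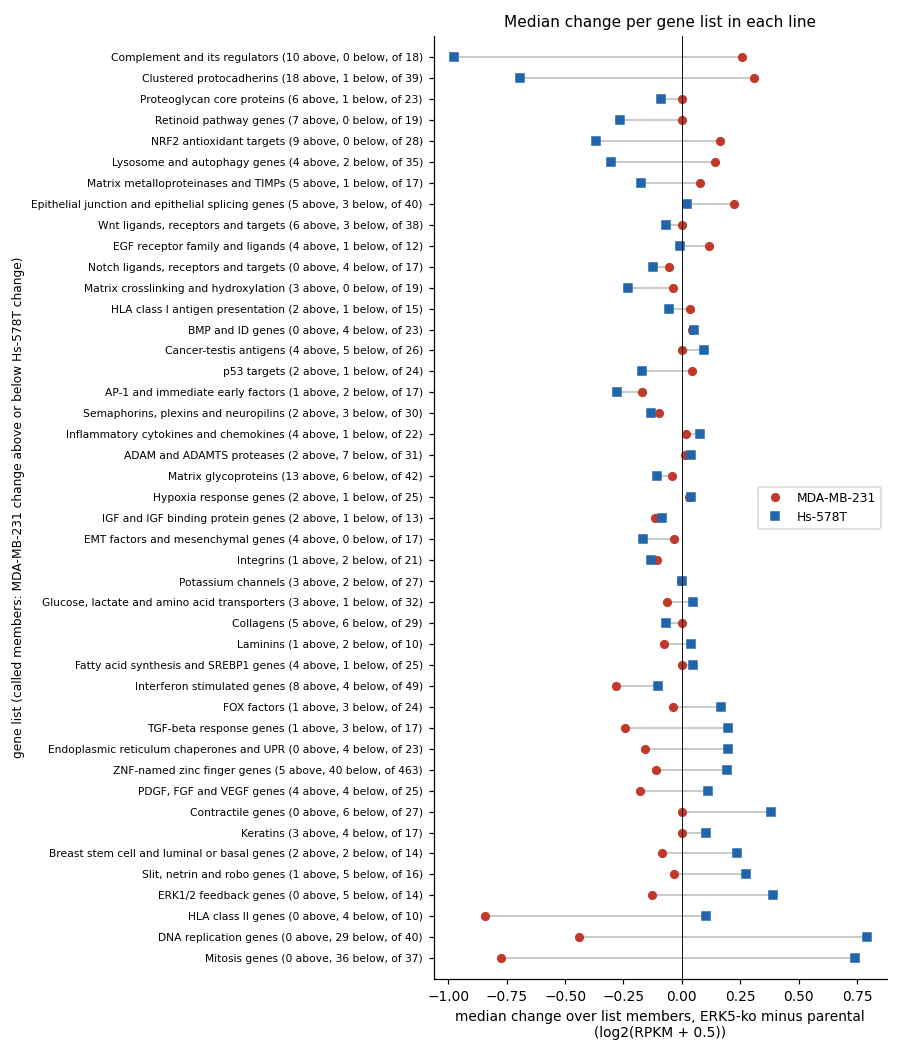
Median change on ERK5 knockout (log2(RPKM + 0.5), x axis) of each of the 44 lists with at least 3 called members (y axis), with red circles for MDA-MB-231 and blue squares for Hs-578T cells. Mitosis and DNA replication have the most separate medians on the lower side (-0.78 and 0.74, and -0.44 and 0.79), and complement on the upper side (0.26 and -0.98).

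Some assignments to a class rested on single libraries although the difference itself kept its call, except for B2M without Hs-578T parental replicate 1. Leaving out any 1 of the 4 MDA-MB-231 libraries ended the opposite class of MKI67, MAD2L1, ETV4, TAP2, CRABP2, IL7R, FTL and B2M. Leaving out either MDA-MB-231 parental library ended it for CENPE, SGK1, F11R, FTH1 and IFI27, as did 1 or both of the ERK5-ko libraries of that line. In the 8 fits that left out 1 library, B2M lost the opposite class in 7 and IFI27 in 5. HMOX1 lost it without MDA-MB-231 parental replicate 1 or ERK5-ko replicate 2, FOXM1 without MDA-MB-231 parental replicate 2, and EZH2 without replicate 2 of either Hs-578T group. The assignment to 1 line ended for DHRS3 without replicate 2 of either Hs-578T group, for MMP11 without replicate 1 of either MDA-MB-231 group, for SLC16A3 without MDA-MB-231 ERK5-ko replicate 1, for COX7A1 without any 1 of the MDA-MB-231 libraries, and for HES1 without Hs-578T parental replicate 1.

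Counts of the smaller lists moved with single libraries as well. Without any 1 of the MDA-MB-231 libraries, 2 of the ERK1 and ERK2 feedback genes were opposite. Fatty acid synthesis had 2 opposite members without MDA-MB-231 parental replicate 1 or Hs-578T ERK5-ko replicate 1. Without Hs-578T parental replicate 2, higher differences numbered 2 for collagens, 2 for metalloproteinases and 5 for respiratory chain subunits, and 5 transporters had lower ones. Higher collagens numbered 3 without MDA-MB-231 parental replicate 1, higher metalloproteinases 3 without MDA-MB-231 ERK5-ko replicate 1 or Hs-578T ERK5-ko replicate 2, and higher ADAM and ADAMTS genes 4 without replicate 1 of either Hs-578T group.

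Further genes described here overlap another named gene on the opposite strand, so that without strand in the counting their reads could be shared. They were TAGLN with PCSK7, MATN2 with RPL30, NID2 with C14orf166, FTH1 with BEST1, EPHX1 with TMEM63A, FOXM1 with RHNO1 and ITFG2, C1S with LPCAT3, ASPN with CENPP, ETV4 with DHX8, CXCL16 with MED11, RSAD2 with CMPK2 and KCNMB1 with KCNIP1. The same held for MMP11 with CHCHD10, PLAU with C10orf55, SLC16A3 with CSNK1D, SLC1A1 with SPATA6L, SLC2A12 with TBPL1, TGM2 with RPRD1B and MAPK7 with B9D1 and MFAP4. ETV5 overlaps DGKG on the same strand.

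A few genes changed in the same direction with unequal size. FST, which binds activins, rose in both lines, from 37.9 and 40.6 to 80.4 and 73.9 RPKM in MDA-MB-231 and from 18.6 and 15.3 to 79.1 and 86.9 RPKM in Hs-578T cells (difference -1.30 ± 0.15, adjusted p = 7.9e-05). LOXL1, which crosslinks elastin, fell in both, from 5.67 and 6.56 to 3.61 and 3.68 RPKM in MDA-MB-231 and from 259.8 and 281 to 72.4 and 55.3 RPKM in Hs-578T cells (difference 1.41 ± 0.18, adjusted p = 0.000121). ANKRD1, a target of YAP, rose in both, from 161 and 156 to 244 and 225 RPKM in MDA-MB-231 and from 2.75 and 2.16 to 11.8 and 13.6 RPKM in Hs-578T cells (difference -1.60 ± 0.16, adjusted p = 2.41e-05). In each of these the change was greater in Hs-578T cells. The assignment ended for LOXL1 without MDA-MB-231 parental replicate 2, and for ANKRD1 without that library or MDA-MB-231 ERK5-ko replicate 1. At the threshold of 1 that defined a call, IFNLR1 and BDKRB2 (1.0004 and 1.0006) lay just inside and QPRT and EBP (both 0.9996) just outside on the higher side, and KLHL18 and MGME1 (-1.0002 and -1.0007) just inside and RPGR and RNF145 (both -0.9995) just outside on the lower side.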

How the data were processed

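The authors deposited a table of RPKM values for 32152 genes in 12 RNA-seq libraries, made with a stranded mRNA kit from cells at 70% confluence. The submitters' processing notes name bcl2fastq, Trimmomatic 0.32, TopHat2 2.1.1, R 3.3.1, DESeq2 1.12.4 and GRCh38, and the counting tool and annotation are not given in the sources used here. Low RPKM values were whole multiples of what 1 read is worth for 32151 of 32152 genes within 0.01 reads, from which totals of 20248162 to 27791195 reads per library followed. A count of 0 allows up to 3 reads, a limit for counting error alone.

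Protein-coding genes with 0.5 RPKM or more in at least 2 libraries (13737 of 17665) were fitted as log2(RPKM + 0.5) with limma 3.58.1 (R 4.3.3) with a variance trend, over 6 group means and 12 libraries (6 residual degrees of freedom), and p-values were adjusted by Benjamini-Hochberg over all 13737 genes. On this scale the changes of weakly expressed genes come out too small. With 2 libraries a group, an exact permutation test cannot go below p = 0.333 and was not used. On simulated data with 13737 genes, made differences of 1.2 were called for 32 of 50 genes, of 1.5 for 46 of 50, of 2 for 50 of 50 and of 3 for 50 of 50, and 1 of 13537 unchanged genes was called. The changed genes were drawn from well-covered genes only, with 1 fixed dispersion for all genes and libraries drawn independently. These rates therefore do not carry over to genes with few reads or to libraries that deviate together.

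The comparison, the classes and the 65 gene lists were chosen with earlier results of these data known. Named genes averaged 1 RPKM or more over the 8 libraries. They were MAPK7, the 8 highest and 8 lowest differences, the 6 largest of each class and up to 5 called members of each list, and other names are said to be chosen after their values were seen or are only counted. Some genes that this rule named are not reported here. Members of lists given by name for a class or for no call were named after their values were seen. Groups came from the labels. Same-numbered libraries of a line deviated together, with correlations of 0.107 to 0.541 across genes in 6 pairs of groups, so the replicate numbers may mark pairs. The main fit had no term for them, and the p-values given leave such pairing out. A fit with a replicate block was an alternative. The other alternatives were pseudocounts of 0.1 and 1, 2 other filters on low values, median-ratio and quantile scaling, the 8 libraries alone, no variance trend, all gene types, voom on the recovered reads, other difference thresholds, each library left out in turn and, added after the data were seen, a correction for length and GC. Promoter sequences came from RefSeq (GRCh38.p14), which held windows for 10921 of the 13737 genes. Gene overlaps came from the gene positions and strands in the deposited table, and transcript length and GC content from GENCODE. Figures were drawn with matplotlib 3.10.9.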

Additional observations from a re-analysis of the deposited data

Results flagged for a closer look

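The effects of ERK5 knockout in the 2 lines differed by the test of the difference itself for 780 genes with a higher and 1004 genes with a lower difference. Among them were 265 genes that rose in MDA-MB-231 and fell in Hs-578T cells, 496 with the reverse, 44 and 43 that rose or fell in MDA-MB-231 cells only, and 212 and 207 that rose or fell in Hs-578T cells only. The most negative differences (log2) were -5.8 for RNASE1, -4.84 for CDYL2, -4.67 for CLIC2, -4.49 for PLXDC2, -4.35 for IL7R, -4.32 for KISS1, -4.06 for SPINK1 and -3.94 for AOX1. The most positive were 6.71 for CYTL1, 4.48 for THBS2, 3.92 for COX7A1, 3.74 for SECTM1, 3.52 for ABCC3, 3.35 for SLC14A1, 3.32 for RCAN2 and 3.31 for ASPN. Signal outside the protein-coding comparison was flagged too, with 136 non-coding or pseudogene entries of a higher and 216 of a lower difference.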

How the results depend on the processing

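Of the genes named by rule, MAPK7, whose difference of 0.03 was not called, changed sign, to -0.065 with the length and GC correction, alone or with a replicate block, and over -0.062 to 0.126 with 1 library left out (-0.017, -0.028 and -0.062 without MDA-MB-231 parental replicate 1, MDA-MB-231 ERK5-ko replicate 2 or Hs-578T parental replicate 2), and the others kept their sign under every alternative. The numbers of genes with a higher and a lower difference stayed within 1.5 times of 780 and 1004 except at other thresholds, 2510 and 2956 with no minimum difference and 96 and 132 with a minimum of 2. At that minimum of 2 the opposite classes held 48 and 63 genes, the MDA-MB-231 classes 3 and 6 and the Hs-578T classes 47 and 30, and with no minimum the classes up in 1 line only held 141 genes for MDA-MB-231 and 548 for Hs-578T, by construction. With a pseudocount of 0.1, genes up in MDA-MB-231 only numbered 28, and genes lower within a line 285 for MDA-MB-231 and 710 for Hs-578T, and with a pseudocount of 1 the MDA-MB-231 number was 89. With voom on recovered reads, the classes up in 1 line only held 17 genes for MDA-MB-231 and 127 for Hs-578T, and genes lower within a line numbered 324 and 788. Voom also ended the calls of ACTG2, AREG, DCN, FAP, IGFBP1, NID2, PDGFB and SFRP2, each near 0 in the other line. A pseudocount of 1 ended those of CD274, DUSP4 and ERBB3, median-ratio scaling that of EZH2, and quantile scaling those of B2M and FTL. The cause of these shifts was not tested.

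Leaving out 1 library gave 715 to 853 higher and 899 to 1206 lower differences. The class up in MDA-MB-231 and down in Hs-578T ranged from 120 to 268 (120 and 133 without MDA-MB-231 parental replicate 1 or 2, 155 and 153 without ERK5-ko replicate 1 or 2), and the reverse class from 257 to 549 (273 and 257, and 325 and 293). Genes up in MDA-MB-231 only ranged from 27 (without Hs-578T ERK5-ko replicate 1) to 46, and genes up in Hs-578T only from 136 (without MDA-MB-231 parental replicate 2) to 296. Scaling by median ratios gave 927 higher and 848 lower, and quantile scaling 897 and 889. The fit with a replicate block gave 781 and 1009, kept all 1784 calls and changed no call of a named gene. Its opposite classes were larger, with 345 genes up in MDA-MB-231 and down in Hs-578T (265 in the main fit) and 608 of the reverse (496 in the main fit). The length and GC correction gave 714 and 916. In the 2-against-2 groups, differences near 1.2 were often missed in the simulation, so a gene without a call is not shown to respond alike in the 2 lines.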

Other observations

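Entries that do not code for protein differed between the lines as well. Of 3120 tested, 352 (11.3%) were called, 45 of them opposite, 16 for MDA-MB-231 only and 115 for Hs-578T only, and of 835 long intergenic RNAs 43 were higher and 96 lower (16.6%). GS1-600G8.5 fell in Hs-578T cells only, from 58.5 and 47.3 RPKM to 8.63 and 8.36 RPKM, and was at 0.220 RPKM or less in MDA-MB-231 cells (difference 2.62 ± 0.28, adjusted p = 0.000109). RP11-214O1.2 was opposite, going from 4.19 and 3.71 RPKM to 2.12 and 1.97 RPKM in MDA-MB-231 and from 1.25 and 1.08 RPKM to 7.64 and 9.90 RPKM in Hs-578T cells (difference -3.28 ± 0.25, adjusted p = 1.83e-05). The 3 neighbouring entries of chromosome 21, AP000431.2, SLC6A6P1 and LINC01425, were at 0 in the 4 MDA-MB-231 libraries and rose only in Hs-578T-ERK5-ko cells, to 5.14 and 5.66 RPKM, 4.99 and 5.05 RPKM, and 6.12 and 6.82 RPKM.

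Some of the lists that differed between the lines can be set beside the MEK5DD libraries, whose comparison shares the parental controls and is therefore not independent. Median changes from parental to MEK5DD cells for MDA-MB-231 and Hs-578T cells were 0.36 and -0.80 for the mitosis list, 0.31 and -0.62 for the DNA replication list, and -0.55 and -0.13 for the complement list. The corresponding ERK5-ko changes were -0.78 and 0.74, -0.44 and 0.79, and 0.26 and -0.98. The complement list thus fell with both MEK5DD and ERK5-ko in Hs-578T cells. Other lists also moved the same way with MEK5DD and ERK5-ko in 1 or both lines. The ERK1 and ERK2 feedback list changed by -0.178 and 0.466 with MEK5DD, and by -0.127 and 0.391 with ERK5-ko. The HLA class II list changed by -0.455 and 0.052, and by -0.844 and 0.105. The NRF2 list changed by -0.042 and -0.255, and by 0.164 and -0.367.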
